A study of Mus musculus with 4 samples.

Results

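Across 4 ATAC-seq libraries of mouse visceral fat, 8450 regions of accessible chromatin on chromosomes 1 to 19 had a peak in every library and lay more than 50 kb from the nearest curated gene start. They were chosen by pooling the 4 peak lists, merging intervals that overlapped by at least 1 bp, keeping the merged regions with a peak from all 4 lists, and measuring from the midpoint of each region to the nearest start of a curated RefSeq transcript on mm10, the mouse reference genome of strain C57BL/6J. The 8450 regions were 22.3% (95% Wilson interval 21.8 to 22.7) of the 37960 regions shared by all lists, out of 144198 merged regions in all. Accessibility was measured by ATAC-seq, in which a transposase cuts open chromatin and the ends of the fragments are sequenced. The mice were 8 weeks old and came from CD-1, an outbred stock. In 2 control libraries the mice descended from dams given sesame oil, and in 2 BPA libraries from dams injected daily with bisphenol A, a plasticizer with estrogenic activity, at 50 mg/kg from embryonic day 7.5 to 13.5. None of the 4 mice received bisphenol A itself. The sample titles name generation F3 and the methods of the study name F4 for the BPA mice, so the generation is not stated here as known, and no source used here gives the sex of these mice. Descent from the dams came through crosses of their offspring that avoided sibling matings, and each library came from whole tissue.

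Most of the regulatory DNA that turns a mammalian gene on in a particular cell type does not lie at the gene's start. Enhancers, short stretches where transcription factors bind and keep chromatin open, can reach a promoter over long genomic distances by looping, and genes that control development and cell identity often sit beside long intervals that carry many of them. Distant open chromatin also holds insulator sites bound by CTCF, the factor that anchors loops. In fat cells, enhancers are commonly bound by C/EBP factors, PPARG with RXRA (at the DR1 element, a direct repeat spaced by a single base), EBF and AP-1 proteins. Peaks in whole adipose tissue can come from adipocytes, progenitors, endothelium or immune cells, and a larger number of cells of a type and more open chromatin per cell cannot be told apart. As a check of the tissue, the promoters of 7 of 7 adipocyte genes (among them Adipoq, Fabp4 and Plin1) had a peak in each of the 4 lists, and those of 3 of 3 hepatocyte genes had none in any.

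The sequences under the summits of 8 of the regions are shown first, because the results below return to them. The first 2 belong to the intronic regions whose rank in their weakest library was best, the next 2 to the best-ranked regions by the same measure with a CTCF and with an AP-1 match, 2 to regions among the 3 farthest from a start, and the last 2 to regions whose ranks differed most between the groups. Each runs from 100 bases before to 100 bases after the summit of the region's best-ranked peak, on the plus strand of the GRCm38.p6 reference (RefSeq, the assembly behind mm10), written 5′ to 3′. Capitals mark matches, on either strand, to the motifs searched, which were a CTCF core, AP-1 (TGANTCA), C/EBP (TTGCNNAA), NFI (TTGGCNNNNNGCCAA), EBF (CCCNNGGG), ETS (CCGGAAG), TEAD (ACATTCC), FOX (TGTTTAC), DR1 and SP/KLF (CCGCCC).
Arid1b intron 4, chr17:5189983-5190183: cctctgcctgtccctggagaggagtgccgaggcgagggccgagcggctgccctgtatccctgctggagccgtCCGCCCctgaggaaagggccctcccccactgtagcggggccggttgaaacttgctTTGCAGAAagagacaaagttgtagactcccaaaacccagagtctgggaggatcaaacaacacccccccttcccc
Maml3 intron 1, chr3:52046977-52047177: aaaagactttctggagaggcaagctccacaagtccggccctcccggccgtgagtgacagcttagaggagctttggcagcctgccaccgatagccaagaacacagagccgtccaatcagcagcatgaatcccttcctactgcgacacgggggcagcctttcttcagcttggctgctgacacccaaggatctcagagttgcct
between Chd2 and Fam174b, chr7:73618384-73618584: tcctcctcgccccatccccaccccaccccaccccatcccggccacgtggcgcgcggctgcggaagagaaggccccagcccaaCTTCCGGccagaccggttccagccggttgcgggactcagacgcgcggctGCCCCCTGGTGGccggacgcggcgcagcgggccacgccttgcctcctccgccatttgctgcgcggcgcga
between Nupl2 and Kcnh2, chr5:24266462-24266662: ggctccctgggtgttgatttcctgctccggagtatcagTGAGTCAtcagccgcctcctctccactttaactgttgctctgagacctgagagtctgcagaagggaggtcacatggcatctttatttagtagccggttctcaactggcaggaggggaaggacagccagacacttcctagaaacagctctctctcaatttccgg
3521.5 kb gap beside Pcdh10, chr3:43720110-43720310: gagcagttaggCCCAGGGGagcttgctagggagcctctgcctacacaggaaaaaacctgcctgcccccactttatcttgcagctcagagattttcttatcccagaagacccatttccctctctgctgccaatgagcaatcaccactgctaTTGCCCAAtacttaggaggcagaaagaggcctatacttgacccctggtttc
3267.8 kb gap beside Cntnap5a, chr1:114392089-114392289: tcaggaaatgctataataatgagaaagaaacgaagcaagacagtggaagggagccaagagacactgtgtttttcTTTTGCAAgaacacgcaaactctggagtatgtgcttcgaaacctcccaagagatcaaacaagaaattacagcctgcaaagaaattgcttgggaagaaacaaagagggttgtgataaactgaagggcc
Zfp462 intron 11, chr4:55077722-55077922: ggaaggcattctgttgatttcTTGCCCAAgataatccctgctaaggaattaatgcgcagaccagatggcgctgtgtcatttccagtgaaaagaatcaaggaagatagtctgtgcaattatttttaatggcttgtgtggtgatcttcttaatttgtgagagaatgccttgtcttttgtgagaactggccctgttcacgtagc
Pappa intron 17, chr4:65318126-65318326: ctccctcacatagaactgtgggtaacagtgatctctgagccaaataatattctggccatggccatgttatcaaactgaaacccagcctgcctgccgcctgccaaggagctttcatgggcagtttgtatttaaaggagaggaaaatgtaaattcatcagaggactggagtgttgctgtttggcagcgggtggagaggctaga

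The Arid1b window carried an SP/KLF and a C/EBP match and had a G+C content of 62.7%. The windows in the gaps beside Pcdh10 and Cntnap5a each carried a C/EBP match, at 51.7% and 41.8%. The Zfp462 window carried a single C/EBP match. No motif of the 10 was found in the Maml3 and Pappa windows, which says only that these letters were absent from those windows.

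Of the 8450 regions, 3935 lay within the span of a curated gene, spread over 1416 host genes, of which 590 held 1 region and 234 held 5 or more. Nfia, encoding a nuclear factor I protein that acts in brown and white fat differentiation, held the most, with 20 regions in its introns, at 62.1 to 291.5 kb from the nearest start. The other host genes with most regions were Rbms3 (19), an RNA-binding protein, Wwox (19), a WW-domain oxidoreductase, Auts2 (18), Lrmda (18), Pde4d (17), a cAMP phosphodiesterase, Rad51b (17), a recombination repair protein, Rora (17), an orphan nuclear receptor, Arhgap26 (15), a GTPase-activating protein, and Slit3 (15), a secreted guidance ligand. These 10 genes spanned 383.1 to 1301.8 kb. Per length the order changed, with 39.2 regions per Mb in Arhgap26, 37.2 in Nfia and 32.9 in Rad51b against 13.1 in Pde4d.

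Regions outside genes were assigned to the coding gene with the nearest start. The intergenic regions fell to 1841 such genes, 875 of them with 1 region and 247 with 5 or more. Zeb2, a zinc finger repressor of epithelial genes, led with 27 regions, followed by Cited2 (26), a transcriptional coregulator, and Klf6 (23), a Kruppel-like factor. Plpp3, a lipid phosphate phosphatase, had 19, Adgrl2, an adhesion receptor, had 18, and Marcks, a protein kinase C substrate, and Tbl1xr1, a subunit of a nuclear corepressor complex, had 17 each. Zfp608 (16), Klf4 (15) and Dapk1 (13) completed the 10. The regions assigned to Cited2, a gene of 2.45 kb, stood 79.9 to 550.1 kb from the nearest curated start, and their median rank was 29.8% of the list, where a small percentage is a strong peak (the rank is by the deposited −log10 q value, averaged here over the 4 libraries). Those of Klf6 had a median rank of 21.3% and those of Zeb2 42.1%. Nearest start is a label of position and does not say which gene a region acts on: among regions inside genes, 1250 (31.8%) had another gene as their nearest coding start.

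**Figure D1:**
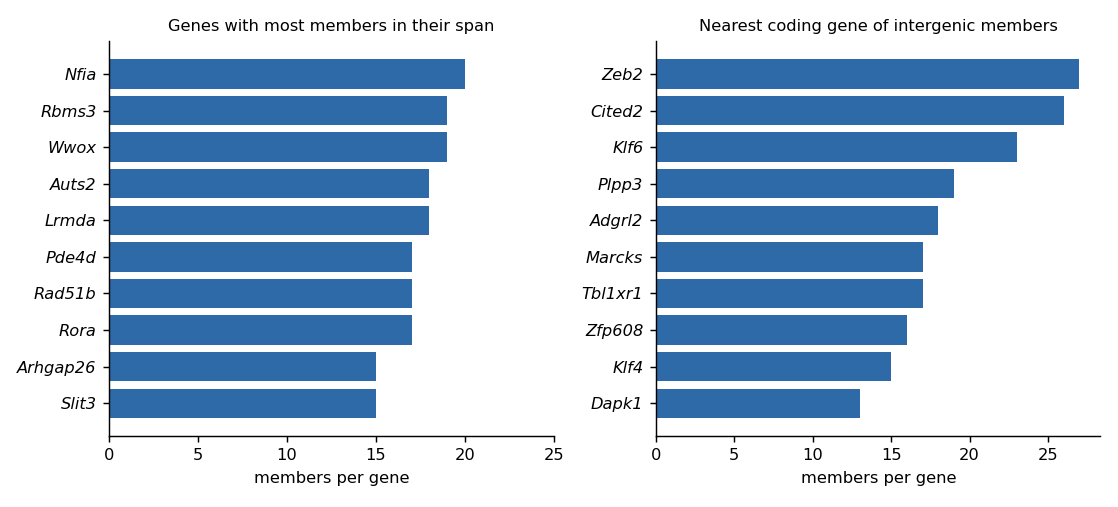
Number of shared regions more than 50 kb from a start (horizontal axis, members per gene) in the 10 genes holding most of them (left) and for the 10 coding genes most often nearest to an intergenic member (right). Nfia held 20 and Zeb2 was nearest to 27.

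Neighbouring regions were joined into a cluster when their midpoints were at most 50 kb apart. There were 4228 clusters, 2421 of them of 1 region (28.7% of the regions stood alone), while 331 clusters of 5 or more held 2241 regions (26.5%). The largest, 20 regions at chr13:60267144-60523571, filled 256.4 kb between Gas1, a membrane protein that binds Hedgehog ligands, and Dapk1, a death-associated kinase. Its median ranks were 35.8% and 39.1% in the control and 39.8% and 26.1% in the BPA libraries. The next were 16 regions at chr4:144947723-145130919 between Dhrs3 and Vps13d, 12 of them in Vps13d introns, and 3 clusters of 14 regions, in the introns of Klhl29 (chr12:5087952-5304520), around Slc8a1, the sodium-calcium exchanger (chr17:81377916-81670692), and in Ror1, a receptor for Wnt5a (chr4:100181536-100408220). No region in these 5 clusters carried a CTCF match.

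Gene lists for the cell types of the tissue were read against the regions, counting for each gene the regions it hosted or to which it was the nearest coding gene. Of 39 adipocyte regulators in the annotation, 28 (71.8%) had at least 1 region and together they had 222, a median of 4 per gene. For comparison, 3195 of all 20021 curated coding genes (16%) had one. The regulators with most were Nfia (24), Maf (20), Rora (17), Ebf1 (15), an early factor of fat cell commitment, and Klf4 (15). Pparg, the master regulator of fat cells, had 1 region, inside its gene, with ranks of 74.2% and 56.6% in the control libraries and 28.5% and 21.8% in the BPA libraries. Both BPA ranks were thus better than both control ranks, as at 17.3% of the 8450 regions and 27.8% of all shared regions on chromosomes 1 to 19. The reverse order held at 36.5% of the 8450 regions, and this one region does not stand for the list.

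Of 32 adipocyte metabolism genes, 16 (50%) had a region, 68 in all. Signalling genes led this list, with 13 at Irs1 and 10 at Irs2, the insulin receptor substrates, 8 at Ghr, the growth hormone receptor, 7 at Igf1r and 5 at Igf1. Lep, encoding leptin, had 1, with ranks of 88.0, 80.3, 53.5 and 64.8% in control 1 and 2 and BPA 1 and 2, and Lpl, lipoprotein lipase, had 2. In the strongest Igf1r region, in its introns 134.6 kb from a start, the ranks were 4.05, 6.18, 9.06 and 4.23% in the same order.

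Of 29 fibroblast and matrix genes, 22 (75.9%) had 105 regions, led by Bmper (17), a BMP-binding secreted protein, Tshz2 (12), Tgfbr2 (9), Col4a1 (7) and Bmp2 (6). The strongest region nearest to Dcn, the proteoglycan decorin, 166.4 kb from a start, ranked 1.38, 3.19, 5.89 and 2.26%. Of 15 endothelial genes 10 (66.7%) had 27 regions, 9 of them at Cdh5, the cadherin of endothelial junctions. Of 14 macrophage and lymphocyte genes 5 (35.7%) had 25, 11 at Bach2 and 7 at Runx1. For muscle and pericyte genes it was 3 of 9 (5 regions), for mesothelial and epithelial genes 0 of 8, and for hepatocyte genes 1 of 6, with 4 regions to which Apoa1 was nearest.

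A neuronal list, fixed as a contrast, gave 14 of 16 genes (87.5%), the highest share of any list, but only 28 regions. These genes are very long: 15 of 16 spanned 100 kb or more, against 20 of 39 adipocyte regulators. Per Mb of gene span the neuronal genes hosted 1.14 regions, the adipocyte regulators 14.3 and the fibroblast and matrix genes 13.5, with 7.58 for adipocyte metabolism, 7.95 for endothelial, 3.7 for muscle and pericyte and 2.58 for macrophage and lymphocyte genes. Gene length thus moved with these shares as well as the list did, and no set test was run. The spans were those of whole genes, including sequence within 50 kb of a start, where the rule allows no region. This lowers the values per Mb most for lists with many short genes. No such value is given for all coding genes, so these values do not show an excess in any list. Nor can they be compared with the densities per Mb of far sequence given below.

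Distance from the nearest start had a median of 93.6 kb (quartiles 66.5 and 153.6 kb). The distances were cut at 50 kb by the rule, so the bins only describe: 4560 regions (54.0%) lay at 50 to 100 kb, 2589 (30.6%) at 100 to 200 kb, 1160 (13.7%) at 200 to 500 kb, 129 (1.53%) at 500 to 1000 kb and 12 (0.142%) beyond 1000 kb. The share of accessible regions that all 4 lists held fell with distance, from 20.5% of the 22261 merged regions at 50 to 100 kb to 17.1%, 11.7%, 4.53% and 1.66% in the bins beyond. At 1 to 50 kb it was 22.6% and at promoters (midpoint within 500 bp of a start) 80.7%. Among all 50896 regions more than 50 kb from a start, 49.8% were in 1 list and 16.6% in all 4. The median rank of the shared regions hardly moved along this scale, averaging 35.8, 36.4, 37.2, 35.8 and 35.3% of the list, whereas the median G+C content around the summit went from 48.8% in the nearest bin to 39.1% in the farthest.

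The annotation placed 3810 regions (45.1%, 44.0 to 46.2) in introns, 125 (1.48%) in exons, 3196 (37.8%) between genes in gaps shorter than 500 kb and 1319 (15.6%, 14.9 to 16.4) in deserts, gaps of 500 kb or more between curated transcripts. Against the 1210.1 Mb of sequenced genome that is this far from a start, introns were 29.7% of the sequence, shorter gaps 26.4% and deserts 43.2%. Density was therefore 10.6 regions per Mb in introns and 10.0 per Mb in shorter gaps, and 2.52 per Mb in deserts, with 6.98 per Mb in all. Chromosomes ranged from 5.11 per Mb on chromosome 14 to 9.67 per Mb on chromosome 13. Deserts held 35.1% of the far regions found in 1 list, also below their 43.2% of the sequence, and all 4 lists shared 9.71% of the far regions in deserts, against 17.9% in introns and 20.8% in shorter gaps. The median ranks of the shared regions in deserts were 32.9, 26.7, 47.9 and 33.4% in control 1 and 2 and BPA 1 and 2. In introns they were 37.0, 31.8, 47.1 and 35.7%, and in shorter gaps 34.0, 29.3, 42.2 and 31.3%. Intronic regions thus ranked worse than those in shorter gaps in every library, by less than the libraries differed among themselves. Deserts ranked better than shorter gaps in both control libraries and worse in both BPA libraries.

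**Figure D2:**
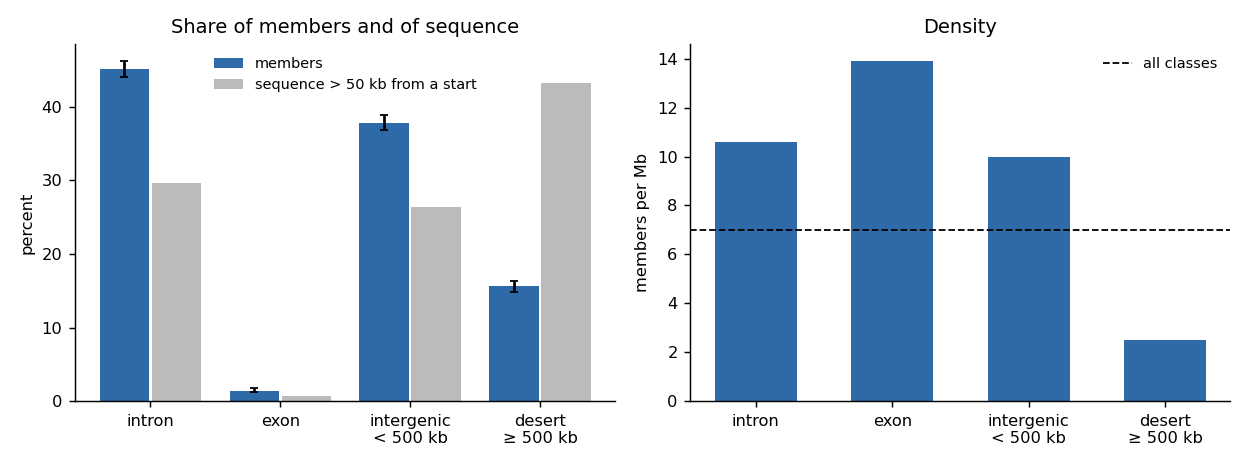
Left, percent of the 8450 members (blue, 95% Wilson intervals) and percent of the sequence more than 50 kb from a start (grey) in introns, exons, intergenic gaps under 500 kb and deserts. Right, members per Mb of that sequence, with the dashed line at 6.98 for all classes. Deserts made up 43.2% of the sequence and held 15.6% of the members.

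Introns of long genes held nearly all of the regions inside genes. Of the 3935, 3607 (91.7%) were in genes of 100 kb or more and 686 in genes of 500 kb or more, with a median host length of 253.9 kb. A region inside a gene can be over 50 kb from every start only if the gene itself reaches that far from its own start. Neighbouring starts must be that distant as well, so this share follows largely from the rule. Intron 1 of the longest curated transcript, often the longest intron and a known home of enhancers, held 528 of the 3810 intronic regions (13.9%). The rule removed everything within 50 kb of a start, so this share depends on the rule too. How much of the far intronic sequence is intron 1 was not measured.

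In base composition the regions differed from the far sequence around them, as peaks here did in general. Their windows around the summit had a median G+C content of 47.8%, against 41.0%, 41.8% and 38.6% for the whole far sequence of introns, shorter gaps and deserts. The median over all merged regions was also 47.8%. Repeats, masked in the reference over 28.5 to 40.4% of that sequence, covered 8.30% of the windows. They covered 8.57% in shared regions at 1 to 50 kb and 10.4% in all merged regions, and only uniquely mapped reads had been kept. Per window there were 3.11 CpG dinucleotides on average, against 4.10 for shared regions at 1 to 50 kb and 17.4 for shared promoters, and 10.8% of the windows had none. Over whole peaks the median G+C content was 45.9, 46.3, 46.9 and 45.9% in control 1 and 2 and BPA 1 and 2 (46.3 ± 0.479, SD, n = 4), lower than that of shared regions at 1 to 50 kb in 4 of 4 libraries, by 2.64 percentage points on average, and lower than the 59.5% of shared promoters.

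The strength of the regions was compared with that of shared regions at 1 to 50 kb. Their median rank was 35.3% and 30.2% in control 1 and 2 and 45.5% and 33.6% in BPA 1 and 2 (36.2 ± 6.60, SD, n = 4), with BPA 1, the library with fewest peaks, ranking them lowest. Shared regions at 1 to 50 kb had 36.0, 33.6, 41.6 and 31.2% (35.6 ± 4.47). The difference, far minus near, was 0.543 percentage points on average (two-sided exact sign-flip permutation test over 4 libraries, p = 0.875, where the smallest p possible is 2 in 16, so that the test could not pass 0.05). The mean hides a split, since the difference was negative in both control libraries (−0.753 and −3.43) and positive in both BPA libraries (3.92 and 2.43). The median peak width was 714, 648, 577 and 965 bp (726 ± 168.9 bp, n = 4), and its difference from regions at 1 to 50 kb was 13.2 bp on average (30 and 55 bp in the control, −22 and −10 bp in the BPA libraries, exact sign-flip permutation p = 0.625 with the same limit). Fold enrichment over background had medians of 4.55, 5.42, 6.23 and 6.44, higher than at 1 to 50 kb in 4 of 4 libraries, by 0.102 to 0.365. Promoters were far stronger, with median ranks of 8.71, 10.1, 8.68 and 6.14%. Fewer of the regions were near the top of every list, with 60 (0.710%, 0.552 to 0.913) in the best 10% of all 4 lists, compared with 275 (1.55%, 1.38 to 1.75) of shared regions at 1 to 50 kb and 39.1% of shared promoters. Far regions found in 1 list lay lower, at 85.7% on average, but being in all lists is part of the rule and favours strong peaks.

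**Figure D3:**
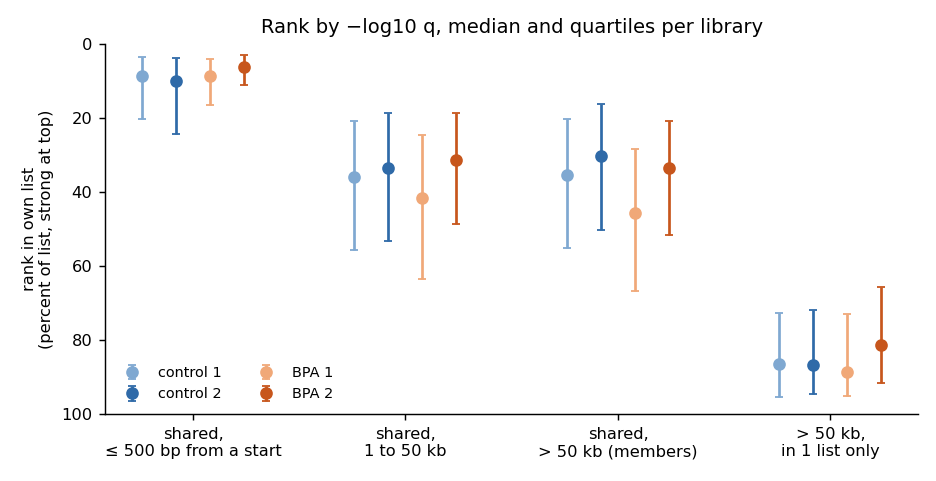
Rank of a region's best peak in its own list by −log10 q (vertical axis, percent of the list, strong peaks at the top) for 4 sets of regions, with the median (point) and quartiles (bars) in each library. Members sat beside shared regions at 1 to 50 kb, with BPA 1 lowest at 45.5%, and promoters sat near the top.

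The strongest regions were closer to promoters in character than the rest. Of the 60 in the best 10% of every list, 15 (25%, 15.8 to 37.2) lay within 500 bp of a start that only the predicted RefSeq models or GENCODE M21 (a broader annotation) hold, against 463 (5.48%, 5.01 to 5.99) of all 8450. Their windows had a median G+C content of 57% and 9.78 CpG dinucleotides, and 33.3% held an SP/KLF match, against 6.21% of all members. An intergenic region between Zfp958 and Shcbp1 (chr8:4677307-4678861) ranked 0.168, 0.184, 1.70 and 0.785%, among the top peaks of every list, and stood 0.281 kb from a GENCODE start. The best-ranked of all in its weakest library lay on chromosome 18 between Zeb1, a repressor of epithelial genes, and Arhgap12 (start 5989416, end 5990405), at 0.171, 0.832, 0.276 and 0.949%.

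Inside genes the region with the best rank in its weakest library was in intron 4 of 19 of Arid1b, a subunit of the BAF chromatin remodelling complex (chr17:5189393-5190652), 194.9 kb from the nearest start. It ranked 1.79% and 3.03% in the control and 0.594% and 0.225% in the BPA libraries, and its folds were 7.48, 8.27, 13.9 and 12.1. Both measures were better in the BPA than in the control libraries without overlap, but the median fold over all members was higher in both BPA libraries too. A region in intron 1 of Maml3, a Notch coactivator (chr3:52045984-52047975), ranked 2.96, 4.93, 4.89 and 6.23%, with the groups overlapping. The next, in intron 33 of 38 of Uggt2, a glycoprotein folding sensor (chr14:119006570-119008294), ranked 0.161 and 0.0855% in the control and 2.28 and 6.36% in the BPA libraries, better than Arid1b in both control libraries, and stood 0.033 kb from a GENCODE start. The best-ranked regions with an AP-1 match (between Nupl2 and Kcnh2, chr5:24266090-24267070) and with a CTCF match (between Chd2 and Fam174b, chr7:73616896-73619292) ranked 0.843, 1.97, 2.52 and 3.24% and 5.43, 7.01, 1.05 and 0.619%. These last 2 regions were picked after the values were seen, by rank in the weakest library with chromosome 18 left out.

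Some strong regions had features that call for care with mapping, and these were also picked after the values were seen. The desert region with the best rank in its weakest library (chr2:98666248-98667318, 1199.1 kb from a start) had a summit window that was 100% repeat-masked, and it ranked 0.00484% and 0.00562% in the control libraries, 0.269% in BPA 1 and 2.95% in BPA 2. Its −log10 q values were 660.4, 727.0, 170.6 and 245.3. The highest mean fold belonged to a region of 408 bp 91.5 kb from Axin2 (chr11:109011649-109012056), with folds of 11.1 and 11.4 in the control and 26.7 and 21 in the BPA libraries. Its summits lay within 10 bp of each other in the 4 libraries. Tandem repeats and collapsed duplications can pile up reads, and no list of such intervals was applied to the members. No member shared a word of 31 bases with the mitochondrial genome, the other common source of misplaced ATAC-seq reads, and 0.615% of all members' windows were masked over at least 50% of their length.

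The farthest region (chr3:43719502-43720533) lay 1658.2 kb from the nearest curated start in a gap of 3521.5 kb beside Pcdh10, a protocadherin, and ranked 21.8, 4.72, 26.2 and 21.3%. The next lay 1486.3 kb from Cdh11, a mesenchymal cadherin (chr8:101298414-101299245), at 68.4, 9.72, 47.0 and 33.7%, and the third 1292.7 kb from Cntnap5a, a neurexin-like gene (chr1:114391687-114392424), at 43.7, 8.95, 26.1 and 16.6%. In each, control 2 ranked the region best. A GENCODE start lay 44.7, 240.9 and 427.9 kb away, so isolation depended on the annotation. Over all members, 4352 (51.5%) were within 50 kb of a predicted RefSeq start and 5968 (70.6%) within 50 kb of a GENCODE start.

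The widest members, by the merged region, were a region of 4400 bp in intron 3 of Lncpint, a long noncoding RNA, of 4166 bp in intron 8 of 36 of Akap13, a kinase anchor protein, and of 4041 bp in intron 1 of Cmss1. In all 3 the width came mainly from BPA 2, the library with the widest peaks, in which the peak was 4186, 3992 and 3523 bp wide, compared with 255 to 1618 bp in the other libraries. The median merged region was 1104 bp (quartiles 868 and 1430 bp). The summits of the 4 libraries spread over a median of 168 bp, and within 100 bp in 28.1% of the members (167 bp and 30.2% for shared regions at 1 to 50 kb). At the edge of the rule, the members just inside lay 50001, 50013 and 50024 bp from a start, in introns of Zfhx3, Stk10 and Cd47, with ranks of 14.8 to 31%, 67.8 to 98.2% and 16.7 to 74.7%. The regions just outside lay at 49993, 49991 and 49991 bp, with ranks of 39.8 to 47.1%, 5.45 to 47.2% and 4.81 to 22.5%.

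Among the motifs searched in the summit windows, C/EBP was the most frequent. It was matched in 1551 members (18.4%, 17.5 to 19.2), against 14.8% of shared regions at 1 to 50 kb, 4.99% of shared promoters, 13.1% of far regions in 1 list and 13% of all merged regions. In deserts the share was 23.9%. G+C content moves with such shares, so they were also read within 3 classes of G+C that divide all merged regions equally, low (up to 43.8%), middle and high (over 51.2%). From low to high the members had 25.7, 18.4 and 10.8%, shared regions at 1 to 50 kb 22.5, 17.4 and 9.34%, and all merged regions 17.3, 14.0 and 7.17%.

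AP-1, the motif of FOS and JUN proteins, was matched in 1103 members (13.1%, 12.4 to 13.8), against 11.5% of shared regions at 1 to 50 kb, 12.6% of far regions in 2 or 3 lists, 10.2% of all merged regions and 2.66% of shared promoters. TEAD, the motif of the Hippo pathway factors, was matched in 5.74%, against 5.06%, 5.31% and 4.42% in the first 3 of these sets. SP/KLF and ETS, motifs of CpG-rich promoters, went the other way, at 6.21% and 1.41% of the members against 57.1% and 14.0% of shared promoters. The EBF letters were found in 7.41% of members, 8.97% at 1 to 50 kb and 14.3% of promoters. FOX (3.09%), DR1 (0.888%) and the full NFI palindrome (0.0710%, 6 members) lay within their intervals of the shares in all merged regions (2.95, 0.863 and 0.0693%).

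The CTCF core was matched in 297 members (3.51%, 3.14 to 3.93), below the 5.00% of shared regions at 1 to 50 kb and above the 2.71% of all merged regions and the 0.920% of far regions in 1 list. The share fell with distance, from 3.97% at 50 to 100 kb to 2.50% at 200 to 500 kb. Members with the match were narrower, with median widths of 633, 540, 465 and 852 bp against 719, 651, 581 and 970 bp in the other members, lower in 4 of 4 libraries, and their summits spread over 93 bp instead of 172 bp. They ranked better than the other members in both control libraries (29.2 and 25.6% against 35.5 and 30.5%) and worse in both BPA libraries (51.4 and 35.5% against 45.2 and 33.5%). The match was read at the region's best-ranked peak, whichever library it came from, so it is not independent of these ranks.

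**Figure D4:**
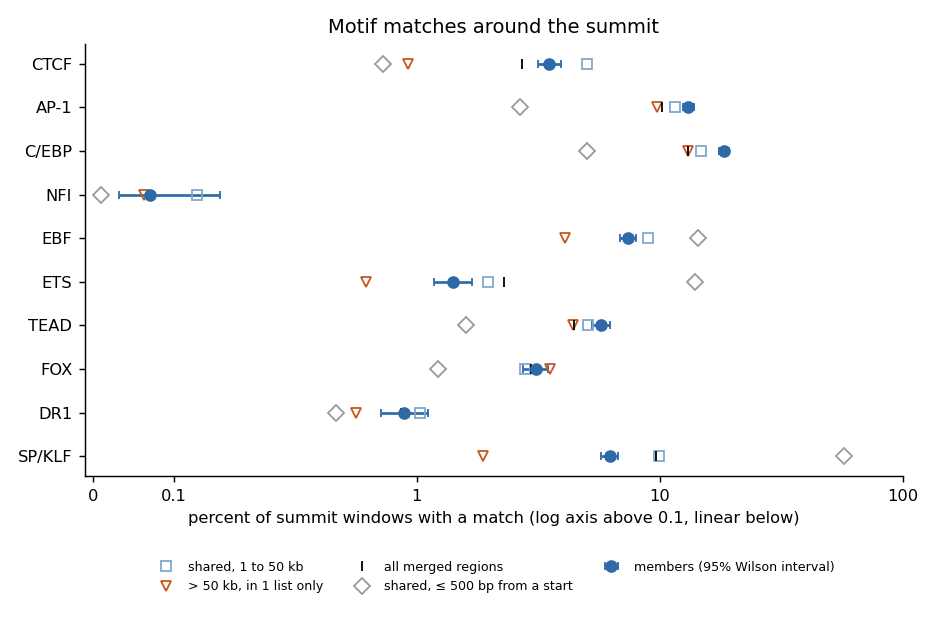
Percent of summit windows with a match to each motif (horizontal axis, logarithmic above 0.1 and linear below) in members (blue points, 95% Wilson intervals), shared regions at 1 to 50 kb, far regions in 1 list, shared promoters and all merged regions. C/EBP, AP-1 and TEAD lay above all merged regions, SP/KLF and ETS below.

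The control and BPA libraries were compared by the order of their ranks, asking how many regions had both BPA ranks better than both control ranks, or the reverse. No test was made, since the smallest two-sided p that permuting 2 against 2 libraries allows is 2 in 6. BPA ranks were better at 1463 members (17.3%, 16.5 to 18.1), where the percentage over all 37960 shared regions was 27.8. Control ranks were better at 3088 members (36.5%, 35.5 to 37.6), where it was 27.5. At the other 3899 members the groups overlapped. The members leaned toward better control ranks, and shared promoters leaned the other way (40.0% BPA better, 19.3% control better). Ranks are shares of a fixed list, so a class that gains rank makes another lose it, and these are not separate measurements. Ranked among peaks over 1 kb from a start alone, the members gave 20.5% and 33.8%, where all shared regions so ranked gave 25.5% and 28.8%.

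G+C content, read around the summit of the region's best-ranked peak, moved with this order. That peak is a control peak wherever control ranks were better and a BPA peak wherever BPA ranks were better. Class and order are therefore not independent readings. In the low class of G+C, BPA ranks were better at 12.2% and control ranks at 42.3% of the members, close to 12.7% and 40.7% for all shared regions. In the middle class the members had 16.3% and 37.2%, against 18.3% and 35.0%. In the high class they had 24.1% and 29.7%, against 37.3% and 19.7%, and against 32.8% and 21.2% for shared regions at 1 to 50 kb. Within the members the lean toward better control ranks was thus widest in the low class and narrowest in the high class, while the distance from all shared regions was widest in the high class. That class has no upper limit and did not match the sets for G+C. Shared promoters, with a median G+C content of 65.2%, made up 9454 of its 20756 shared regions. The members' upper quartile was 52.2%. Peak numbers and widths also differed between libraries within a group (72375 peaks in BPA 1 and 98060 in BPA 2), and their part in this order was not tested.

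By class, control ranks were better at 36.7% of intronic members, 34.6% in shorter gaps and 41.4% in deserts, and BPA ranks at 17.6, 18.6 and 13.3%. Members with a CTCF match gave 152 of 297 (51.2%, 45.5 to 56.8) with control ranks better and 23 (7.74%) with BPA ranks better. Shared regions at 1 to 50 kb with the match gave 37.2% and 15.5%, and without it 28.8% and 24.5%, the same direction. The motif window was centred on the region's best-ranked peak, which is a control peak wherever control ranks were better. Match and order were therefore not independent readings, and the effect of this choice was not tested. In the low, middle and high class of G+C, control ranks were better at 58.5, 53.1 and 44.1% of the members with a CTCF match. Members with a C/EBP match had control ranks better in 43.0% and BPA ranks in 12.0%, and shared regions at 1 to 50 kb with the match 35.6% and 17.0% (28.1% and 25.3% without it). C/EBP matches were most frequent in the low class of G+C, where control ranks were better at 42.3% of all members. Neither the C/EBP nor the AP-1 comparison was split by G+C, so its part in them was not tested. The AP-1 match did not go with better control ranks. Members with it had 33.1% and 20.5%, and those without it 37.1% and 16.8%. Shared regions at 1 to 50 kb had 29.3% and 25.3% with the match and 29.2% and 23.9% without it.

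**Figure D5:**
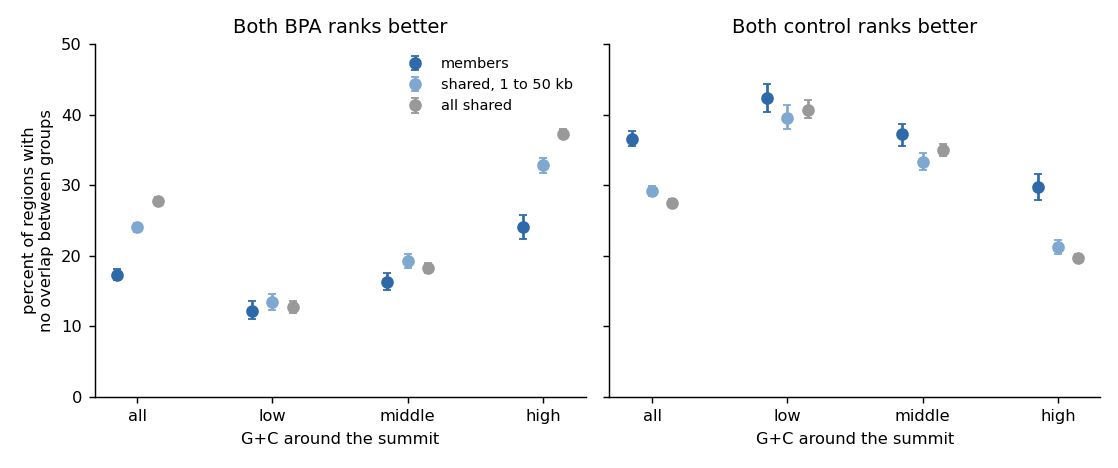
Percent of regions whose BPA ranks were both better (left) or whose control ranks were both better (right), over all regions and by class of G+C content, for members, shared regions at 1 to 50 kb and all shared regions, with 95% Wilson intervals that cover counting error only. Members had fewer BPA-better regions than all shared regions in the high class (24.1% against 37.3%) and about as many in the low class. The high class has no upper limit, and shared promoters were 9454 of its 20756 shared regions.

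The regions with the widest gap between groups are given as values, since they were chosen for it. In intron 11 of 12 of Zfp462, a zinc finger gene (chr4:55076971-55079011), the ranks were 90.9% and 92.9% in the control and 21.5% and 16.3% in the BPA libraries, with folds of 2.93, 2.77, 9.37 and 7.98. A region on chromosome 18 (start 5931877, end 5932886) ranked 92.3% and 80.3% in the control and 9.95% and 8.02% in the BPA libraries. It lay in the same gap between Zeb1 and Arhgap12 as the best-ranked member, about which the groups overlapped. In the other direction, intron 17 of 21 of Pappa, a protease of insulin-like growth factor binding proteins (chr4:65317834-65318703), had ranks of 7.91% and 13.9% in the control and 90.3% and 93.8% in the BPA libraries. In the Pappa region the folds were 6.62 and 6.87 against 3.80 and 2.62.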

How the data were processed

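Nuclei from visceral adipose tissue were processed by Omni-ATAC. Per the submitters' processing notes, Trim Galore, Bowtie2 2.3.5.1, SAMtools and MACS2 2.2.7.1 were used with mm10. The authors kept uniquely mapped reads, removed duplicates and called peaks on each library. The deposited peak lists (72375 to 98060 peaks) give a score, a fold enrichment, −log10 p and −log10 q values and a summit for each peak. The deposited score and −log10 p were not analysed. The lists hold no read depth and none was used here, so intervals (Wilson, 95%) cover counting error only. All listed peaks passed a −log10 q of about 1.30.

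From the lists, regions were merged, and the best peak of each library in a region was ranked within its list by −log10 q. Starts, classes and sequence came from GRCm38.p6 with curated RefSeq transcripts (31601 distinct starts). Python 3.11.15, numpy 2.4.6 and pandas 2.3.3 were used, and the scripts were tested on simulated data. Named regions were the best-ranked, farthest, widest, those at the edge of the distance rule and those with the largest gap between groups, plus the additions named as such. Withheld items among them are not reported here. The members, gene lists and tests were chosen with earlier results of these data known. Nothing states that the 2 libraries of a group came from separate litters, and the only tests, over 4 libraries, measure the spread between them. Alternatives covered the start annotation, the distance, peak thresholds, overlap, left-out libraries, desert size, motif window and ranking.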

Additional observations from a re-analysis of the deposited data

Results flagged for a closer look

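Chromosome X was outside the rule and not used in the report. Processed in the same way, it held 756 regions shared by all 4 lists, and 111 of them (14.7%, 12.3 to 17.4) lay more than 50 kb from a curated start. This is a signal in data that the comparisons did not use, and there was no group without it to set it against.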

How the results depend on the processing

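No paired analysis was possible because control and BPA were compared by counts alone, with no fit or test, and the replicate numbers came with nothing that ties the same number to a shared litter or day. Of 132 alternative values, 80 stayed within the spread or interval of the reported value (within 1.5 times for a count) and 52 moved. The rank difference from regions at 1 to 50 kb, 0.543, changed sign in 1 setting, without BPA 2 (−0.0396). With predicted RefSeq starts included there were 4098 members, 48.0% in introns, 19% in deserts, mean G+C 45.2%, BPA ranks better at 15.2% and control ranks at 40.0%. At more than 25 kb there were 13988 members, 47.2% in introns, 10.2% in deserts, G+C 46.9%, CTCF 3.97%, BPA better 18.9% and control better 34.7%. At more than 100 kb there were 3890, with 40.5%, 28.9%, 45.4%, 2.98%, 15.7% and 38.5% in the same order. GENCODE starts, chosen after seeing the data, left 2551, with 41.7%, 21.1%, 45.5%, 3.02%, 15.3% and 38.1%. Requiring −log10 q of at least 5 in every list left 5297 members, 43.3% in introns, rank 27.9%, CTCF 4.12%, BPA better 13.2% and control better 42.5%. All shared regions so selected gave 26.9% and 29.8%. Ranking among peaks over 1 kb from a start, also chosen after seeing the data, gave rank 27.9%, BPA better 20.5% and control better 33.8% (all shared regions 25.5% and 28.8%). Fold in place of −log10 q gave BPA better 18.1% and control better 30.2%, where all shared regions gave 26.0% and 24.8%. Deserts of at least 250 kb or 1000 kb held 30.1% or 6.27%, and CTCF was matched in 5.04% of whole regions.

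Leaving out 1 library at a time, with regions shared by the other 3, gave 9054 to 10909 members, 15 to 16.8% in deserts, G+C 45.3 to 46.6% and CTCF 3.07 to 4.22%. The rank difference from regions at 1 to 50 kb went from −0.0396 to 1.28. With only 3 ranks, fewer orders are possible and the shares without overlap rise by construction, to 18.5 to 34.0% BPA better (all shared regions 29.3 to 41.7%) and 44.3 to 58.3% control better (35.9 to 46.6%). Without BPA 2 control ranks were better at 58.3% of the members, without control 1 BPA ranks at 30.5%, without control 2 at 34.0% and without BPA 1 at 27.3%. In each of these the members had fewer BPA-better and more control-better regions than all shared regions. Nearest edge, the best 72000 peaks and a base common to all 4 lists moved none of these values. Read depth was not used, and with 2 libraries a group no difference between groups was tested.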
